A study of Mus musculus with 8 samples.

Results

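The Cyp2b genes Cyp2b9, Cyp2b10, Cyp2b13 and Cyp2b23 encode cytochrome P450 enzymes of the liver, and all of their probes on the array were followed here in livers of TgC6hp55 and wild type mice. The 4 genes were selected on the difference between these same groups, so their difference in signal is given as a description with no test. They are 4 of 16593 named genes on the array and are read by 5 probes, 1 for each gene and a second for Cyp2b10. The comparison was between 4 TgC6hp55 and 4 wild type males, all 21 weeks old and on the C57BL/6J background, with 1 Illumina BeadChip (Mouse Ref-8 v2.0) per liver. TgC6hp55 mice carry the coding sequence of human TNFR1 under the CollagenVI(a1) promoter, which is active in mesenchymal cells, with an hGH minigene (the human growth hormone gene, placed there to stabilise the transgene) at its end. Per the study, most work was done on the line of a first founder male, in which the insertion removed exons of Icoslg and Dnmt3l. A line from another founder was also made, and the labels do not say from which of them these livers came. Neither the human receptor nor the minigene was found expressed in the liver itself, while human growth hormone circulated in the serum.

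CYP2B enzymes are membrane-bound monooxygenases of the endoplasmic reticulum that oxidise drugs, pesticides, steroids and fatty acids with electrons passed on by NADPH-cytochrome P450 reductase. Cyp2b10 is the classical phenobarbital-inducible gene of mouse liver and a target of CAR (gene Nr1i3), a nuclear receptor that moves to the nucleus when drugs activate it or when signalling from the EGF receptor stops. Cyp2b9 and Cyp2b13 are best known as genes of the female mouse liver, where the sex-specific rhythm of growth hormone secretion sets their level. Cyp2b23 is the least studied of the group, and Cyp2b19, their neighbour, is an enzyme of the epidermis.

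The genes lie together on mouse chromosome 7, and the 300 bases around each start (250 before it and 50 after it) are shown because they are the stretch in which these 4 differently expressed genes can be set side by side. The sequences are RefSeq's for GRCm38.p6, 5′ to 3′, on the strand of the gene. They come from chr7:26173159-26173458 (plus strand) for Cyp2b9, chr7:26061245-26061544 (plus) for Cyp2b13, chr7:25897408-25897707 (plus) for Cyp2b10 and chr7:26686381-26686680 (minus) for Cyp2b23. Capitals mark matches on either strand to TTGCNNAA, a core that C/EBP factors can bind, and to AGGTCA, a hexamer that many nuclear receptors bind.
Cyp2b9: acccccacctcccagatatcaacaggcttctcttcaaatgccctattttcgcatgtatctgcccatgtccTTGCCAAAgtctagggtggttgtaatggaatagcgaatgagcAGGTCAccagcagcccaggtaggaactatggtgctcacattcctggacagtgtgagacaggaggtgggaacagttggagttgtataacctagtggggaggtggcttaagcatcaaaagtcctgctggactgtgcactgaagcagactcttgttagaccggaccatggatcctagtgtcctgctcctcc
Cyp2b13: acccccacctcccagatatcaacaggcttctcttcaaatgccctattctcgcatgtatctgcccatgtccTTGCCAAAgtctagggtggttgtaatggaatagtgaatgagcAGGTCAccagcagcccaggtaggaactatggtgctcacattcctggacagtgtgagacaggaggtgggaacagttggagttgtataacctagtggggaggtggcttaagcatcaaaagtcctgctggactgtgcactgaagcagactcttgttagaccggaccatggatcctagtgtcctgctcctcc
Cyp2b10: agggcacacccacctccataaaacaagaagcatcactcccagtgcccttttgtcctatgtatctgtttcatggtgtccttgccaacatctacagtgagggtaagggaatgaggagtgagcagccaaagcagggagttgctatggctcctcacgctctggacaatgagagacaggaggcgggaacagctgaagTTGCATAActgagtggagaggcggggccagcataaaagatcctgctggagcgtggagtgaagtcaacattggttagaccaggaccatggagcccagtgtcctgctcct
Cyp2b23: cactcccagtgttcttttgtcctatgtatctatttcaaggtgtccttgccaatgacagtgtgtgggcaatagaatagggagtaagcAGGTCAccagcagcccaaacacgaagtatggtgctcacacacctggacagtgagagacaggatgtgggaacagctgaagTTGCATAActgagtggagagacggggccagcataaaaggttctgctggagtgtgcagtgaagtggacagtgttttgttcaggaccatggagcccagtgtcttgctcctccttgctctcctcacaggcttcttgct

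The windows of Cyp2b9 and Cyp2b13 were identical at 298 of 300 bases (99.3%), the differences being T48C and C104T (the base of Cyp2b9 first, positions counted from 1 at the 5′ end of the window). Cyp2b10 and Cyp2b23 matched at 222 of 261 aligned bases (85.1%). Across these pairs identity was lower, at 76.1% for Cyp2b10 and 78.7% for Cyp2b23 against either of the other genes. TTGCNNAA occurred in each of the 4 windows and in 10.8% of 32851 RefSeq promoters of the same length, but not at the same place. In Cyp2b9 and Cyp2b13 the match was TTGCCAAA at -180 from the start, where Cyp2b10 reads TTGCCAAC. In Cyp2b10 and Cyp2b23 it was TTGCATAA, at -58 and -85 by their own annotated starts, where Cyp2b9 and Cyp2b13 read TTGTATAA. AGGTCA stood in Cyp2b9, Cyp2b13 and Cyp2b23 and in 16.3% of all promoters, while the aligned stretch of Cyp2b10 lacked it. The windows held no match to TATAAA (13.6% of promoters), TTCNNNGAA, the STAT5 core (8.3%), ATTGAT, an HNF6 core (7.54%), or CAAAGTCCA, an HNF4 sequence (0.475%). A match is a description of letters, and no binding was measured.

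Signals are given as log2 of the background-corrected and quantile normalized intensity, with an offset of 16 added before the logarithm, so that a probe without signal reads about 4. A probe is called detected on an array where its detection p, the comparison with the negative control beads of that array, was under 0.05. Mean signal per array before normalization was 112 to 224 in TgC6hp55 livers (median 160) and 167 to 179 in wild type livers (median 178), and of 25697 probes 10541 to 12011 were detected in TgC6hp55 and 11005 to 11269 in wild type livers. Arrays correlated across genes at 0.982 to 0.992 within TgC6hp55, 0.986 to 0.992 within wild type and 0.957 to 0.970 between the groups. Precision is limited by the number of arrays. A probe's signal depends on its own sequence, so levels are compared between livers and not between genes.

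Cyp2b9 had the strongest contrast among the members with signal in wild type livers. Its probe ILMN_2617625 read 12.22, 12.51, 12.64 and 12.34 in TgC6hp55 livers, against 4.65, 4.37, 4.88 and 4.94 in wild type livers. The lowest TgC6hp55 liver was 7.27 log2 units above the highest wild type liver. Before normalization the same intensities were 4271, 5705, 8278 and 3526 in TgC6hp55 livers and 9, 3, 14 and 14 in wild type livers. The probe was detected in 4 of 4 TgC6hp55 livers and in 3 of 4 wild type livers, so Cyp2b9 was near the limit of the array in wild type males and under it in 1 of them. The means were 12.43 ± 0.19 in TgC6hp55 and 4.71 ± 0.26 in wild type livers (SD, n = 4 each), a log2 fold change of 7.72 (SE 0.14), or 210-fold. When the undetected signal was set to the lowest one detected on its array, and any dimmer signal likewise, the fold was 204.

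Cyp2b13, which shares nearly all of its promoter window with Cyp2b9, was not detected in any wild type liver. Probe ILMN_1214531 read 10.49, 11.37, 11.38 and 10.93 in TgC6hp55 livers, against 4.25, 4.27, 4.18 and 4.27 in wild type livers. Its intensities before normalization were 1276, 2581, 3520 and 1233 in TgC6hp55 livers, against -1, 0, -4 and 0 in wild type livers. The means were 11.04 ± 0.42 in TgC6hp55 and 4.24 ± 0.04 in wild type livers, 6.80 apart on the log2 scale (SE 0.17). Since a wild type level could not be measured, the fold is a bound, and Cyp2b13 was at least 88.2-fold higher in TgC6hp55 livers. This bound sets the TgC6hp55 mean against the lowest detected signal of each wild type array. TgC6hp55 livers differed more from each other for Cyp2b13 (SD 0.42) than for any other member.

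Cyp2b23 behaved like Cyp2b13 in that it was detected in all TgC6hp55 livers and in no wild type liver. Probe ILMN_2976211 read 10.35, 10.56, 10.90 and 10.40 in TgC6hp55 livers, against 4.49, 4.14, 4.22 and 4.46 in wild type livers. The intensities were 1147, 1512, 2601 and 859 in TgC6hp55 livers and 6, -8, -2 and 5 in wild type livers. Means of 10.55 ± 0.25 in TgC6hp55 and 4.33 ± 0.18 in wild type livers differed by 6.22 (SE 0.14), and the fold was at least 62.8. Each of these 3 genes had strong signal in every TgC6hp55 liver and signal at or near background in wild type livers.

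Cyp2b10 differed least and was the member detected in every wild type liver. In wild type replicate 1 it was at the limit, with a detection p of 0.0464 and the lowest signal detected on that array. Probe ILMN_2594926 read 8.30, 8.62, 8.94 and 8.88 in TgC6hp55 livers, against 4.59, 4.96, 5.61 and 5.42 in wild type livers. Intensities were 263, 394, 664 and 287 in TgC6hp55 livers and 8, 15, 35 and 26 in wild type livers. Means were 8.68 ± 0.29 in TgC6hp55 and 5.14 ± 0.46 in wild type livers, a log2 fold change of 3.54 (SE 0.21), or 11.6-fold. Wild type livers spread over about 1 log2 unit for this gene, more than for any other member, and the groups still did not overlap.

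The second Cyp2b10 probe did not show this difference. ILMN_1215955 read 4.87, 4.36, 4.62 and 4.34 in TgC6hp55 livers, against 4.33, 4.51, 4.45 and 4.27 in wild type livers. It was detected in 2 TgC6hp55 livers and in no wild type liver, so it did not enter the fit across genes, and its groups overlapped (difference 0.15, SE 0.12). The 2 probes of Cyp2b10 therefore disagree, and the values for Cyp2b10 rest on the brighter of them. The probe for Cyp2b19, ILMN_2846120, was not detected on any of the 8 arrays (means 4.25 in TgC6hp55 and 4.16 in wild type livers), so the difference did not extend to every Cyp2b probe. The probe sequences were not used here, and how far a probe for one Cyp2b transcript also binds that of a close relative was not tested.

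**Figure D1:**
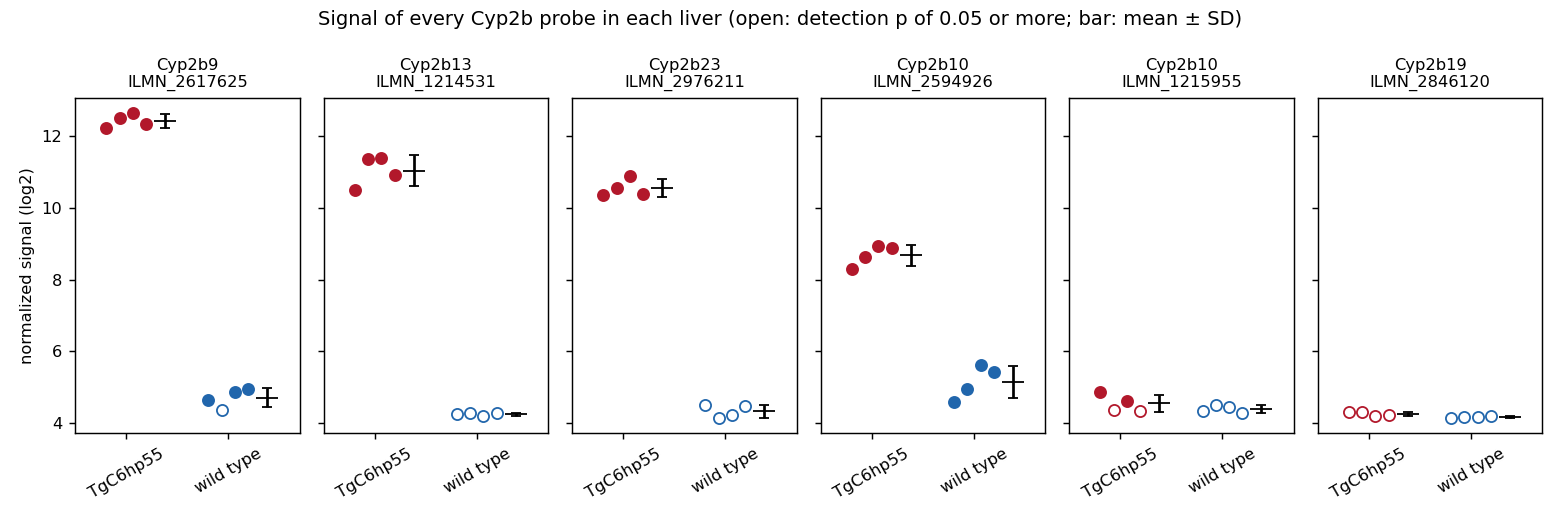
Normalized signal (log2) of the 5 Cyp2b member probes and of the Cyp2b19 probe in each of 4 TgC6hp55 (red, left) and 4 wild type livers (blue, right); open points were not detected, and bars give mean ± SD. The first 4 probes have no overlap between the groups, while the second Cyp2b10 probe and the Cyp2b19 probe stay between 4 and 5.

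Across all features tested (1 probe for each gene, among those detected on at least 4 of the 8 arrays), 942 of 8540, or 11%, differed at an adjusted p under 0.05 (limma, Benjamini-Hochberg), and such features are described as called. With median scaling 293 were called, by SAM with the fold and FDR limits of the study's methods 355, and without wild type replicate 2 620. Of all features 6.52% were called higher and 4.51% lower in TgC6hp55 livers, and 9.2% (786) had every TgC6hp55 liver above every wild type liver. All 4 Cyp2b genes had their groups apart in this way and passed the detection filter, as follows from how they were chosen, and nothing is read from that count. Cyp2b13 and Cyp2b23 passed the filter only through the TgC6hp55 livers. In bulk liver, more cells that express a gene and more RNA per cell cannot be told apart.

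Among TgC6hp55 livers the 4 genes ranked replicate 1 lowest and replicate 3 highest in each case. The distance between these extremes was largest for Cyp2b13, at 0.89 log2 units. That pair of extremes occurred in 6.23% of all features tested and in 8.8% of the 557 features called higher. The high end was the same on every scale tried: TgC6hp55 replicate 3 was highest for all 4 genes before normalization, after median scaling and in the authors' cubic spline values. The low end was not, since before normalization and after median scaling replicate 4, the dimmest array, was lowest for Cyp2b9, Cyp2b13 and Cyp2b23, and replicate 1 for Cyp2b10 alone. Replicate 3 was also the brightest array, and the part of array brightness in its rank was not tested. In wild type livers Cyp2b9 and Cyp2b10 both read higher in replicates 3 and 4 than in replicates 1 and 2. Cyp2b10 was highest in replicate 3 and Cyp2b9 in replicate 4. Cyp2b13 and Cyp2b23 were not detected in wild type livers, so no order could be measured for them.

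Likeness between genes was taken as the root mean square difference of their log2 signals over the 8 livers after each gene's own mean was removed, so that a small value means the same size of difference in the same livers. Cyp2b13 and Cyp2b23 were the closest members (0.35), followed by Cyp2b9 and Cyp2b13 (0.51). Cyp2b10 stood farther off, at 1.39 or more from each of the others. Outside the family, A1bg, a secreted plasma protein known for its female pattern in mouse liver, was nearest to Cyp2b23 (0.33), Cyp2b13 (0.42) and Cyp2b9 (0.69). Acot3, a peroxisomal acyl-CoA thioesterase, and Cyp17a1, the steroid 17-alpha-hydroxylase, came next for all 3. Cyp2b10 was nearest to Cux2 (0.28), Mmd2 (0.30) and Vldlr (0.32), of which Cux2 is a transcription factor of female liver and Vldlr a lipoprotein receptor. The wild type values of Cyp2b13, Cyp2b23, A1bg and Cux2 were not above background and are no measured level. With 2 groups this far apart the measure mainly reflects the size of the group difference.

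The size of the Cyp2b differences depended on how signal near background was handled, while their direction did not. Without further background correction the log2 fold change was 8.42 for Cyp2b9, 7.03 for Cyp2b13, 6.54 for Cyp2b23 and 4.19 for Cyp2b10. With an offset of 50 in place of 16 these values were 6.52, 5.34, 4.83 and 2.67. The authors' cubic spline values gave 8.06, 7.08, 6.58 and 3.75. For Cyp2b13 and Cyp2b23 each of these values sets a measured TgC6hp55 level against wild type background. Their order by fold, between themselves and against Cyp2b9, was therefore not measured. Cyp2b10, at 11.6-fold by its brighter probe, lay below the bounds of Cyp2b13 (88.2) and Cyp2b23 (62.8). In spline units Cyp2b9 averaged 5674 ± 778 in TgC6hp55 and 21.0 ± 5.6 in wild type livers.

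**Figure D2:**
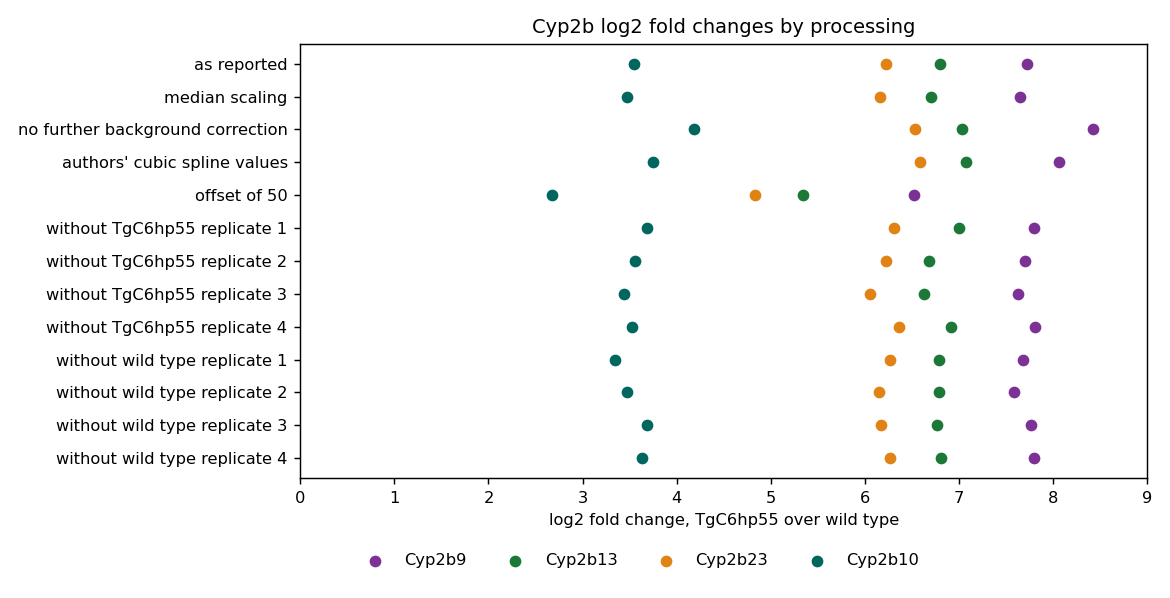
Log2 fold change (TgC6hp55 over wild type, horizontal axis) of the 4 Cyp2b genes under each processing and with each liver left out. All points lie above 0, those of Cyp2b13 and Cyp2b23 are set against wild type signal that was not detected, and the offset of 50 gives the lowest value for each gene.

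On chromosome 7 the RefSeq order places Cyp2b10, Cyp2b13 and Cyp2b9 side by side, then a Cyp2a gene, vomeronasal receptor and Nlrp genes, and then Cyp2b23, Cyp2b19 and further Cyp2 genes. Of 14 other genes in the stretch of Cyp2 genes, 9 were on the array and 5 could be tested. Cyp2g1, a P450 known from the olfactory mucosa, was higher, with 6.68, 7.0, 6.85 and 6.98 in TgC6hp55 livers against 4.76, 4.67, 5.01 and 4.94 in wild type livers (log2 fold change 2.03, SE 0.12, adjusted p = 2.37e-07). Cyp2a5, the coumarin 7-hydroxylase, read 13.37, 13.47, 13.08 and 13.33 in TgC6hp55 livers against 11.61, 11.69, 11.81 and 11.98 in wild type livers (log2 fold change 1.54, SE 0.12, adjusted p = 4.28e-06). Cyp2a4, its near-identical female-biased relative, had no probe of its own name, so signal of the 2 genes may be mixed.

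Cyp2a12 was also higher (0.57, adjusted p = 0.00428), and Cyp2f2, a P450 best known from the airways that is also abundant in periportal hepatocytes, was lower (-0.89, adjusted p = 0.000217). Cyp2s1, which adjoins Cyp2b10, was not called (0.08, adjusted p = 0.746). Among the 10 genes on either side of the stretch 15 were tested, of which Axl, a receptor tyrosine kinase, was called higher (1.04, adjusted p = 0.0159) and the other 14 were not called. With median scaling Axl (adjusted p = 0.123) and Cyp2a12 (adjusted p = 0.468) were no longer called. Within the stretch 3 of 5 tested genes were thus higher and 1 lower, against 1 of 15 outside it. All 5 within it are P450 genes, and the flanking genes are not. Of all other P450 genes tested on the array 51.1% were called, against 11% of all features. The part of chromosomal place was not tested.

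**Figure D3:**
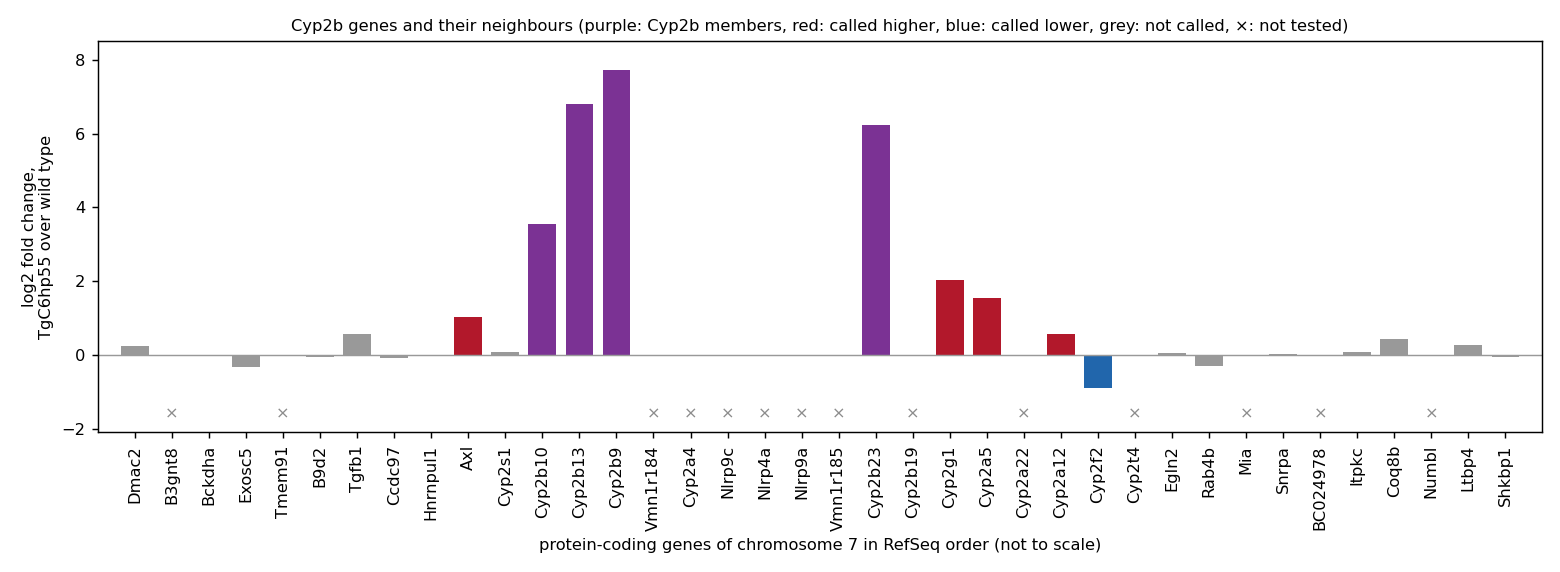
Log2 fold change (TgC6hp55 over wild type) of the protein-coding genes around the Cyp2b genes in chromosome order, with distances not to scale and × for genes not tested. The 4 purple Cyp2b bars reach 3.54 to 7.72, the next highest is Cyp2g1 at 2.03, and the flanking genes lie between -0.33 and 1.04.

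The regulators known to act on Cyp2b10 were examined next. Of 15 CAR regulators tested, 1 was called higher and 1 lower (median 0.07, against -0.01 over all features). The share called was 13.3%, against 11% of all features. Nr1i3, the gene of CAR itself, read 9.19, 9.52, 9.08 and 8.85 in TgC6hp55 livers against 8.26, 7.95, 7.79 and 8.14 in wild type livers (log2 fold change 1.12, SE 0.15, adjusted p = 0.00048). Egfr, whose signalling is known to hold CAR in the cytoplasm, read 7.73, 7.34, 7.32 and 7.61 in TgC6hp55 livers against 11.03, 11.51, 10.58 and 10.90 in wild type livers (log2 fold change -3.50, SE 0.18, adjusted p = 8.56e-08). The groups did not overlap for either gene. Egfr also stands in the list of male-biased liver genes examined below, of which 26 of 31 tested were called lower, so it enters both counts. Nr1i2, the gene of the related drug receptor PXR (0.10), Rxra, the partner of both receptors (-0.25), and Hnf4a, a hepatocyte nuclear factor that acts on many P450 genes (0.11), were not called.

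Of 34 other known targets of CAR and PXR, 9 were called higher and 1 lower, with a median of 0.30. The share called was 29.4%, against 11% of all features. The higher ones included Sult1a1, a phenol sulfotransferase (log2 fold change 1.19, adjusted p = 5.79e-06), Aldh1b1, an aldehyde dehydrogenase (1.10, adjusted p = 0.00135), Papss2, which makes the sulfate donor (0.74, adjusted p = 0.000383), and the organic anion carrier Slco1a4 (0.82, adjusted p = 0.00701), beside Cyp2a5. The sulfotransferase Sult5a1 was lower (-1.76, adjusted p = 5.24e-06). Cyp3a11, the main PXR target among mouse P450s, was not called (12.43 ± 0.09 in TgC6hp55 and 12.66 ± 0.21 in wild type livers, adjusted p = 0.254), nor were Cyp2c29 (0.44, adjusted p = 0.102) and Cyp2c37 (0.04, adjusted p = 0.923). The highest of the 34 was Cyp2a5 at 1.54, below the 3.54 of Cyp2b10. With median scaling 5 of the 34 were called, and Papss2 (adjusted p = 0.127) and Slco1a4 (adjusted p = 0.158) were not among them, and by SAM 6 were called.

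CYP2B enzymes need electrons and heme, and of 15 genes tested for these supplies 0 were called by limma, with a median of -0.17 and 5 at an unadjusted p under 0.05. Por, the gene of NADPH-cytochrome P450 reductase, was not among these 15, so the list gives no level for this electron donor. Fech, which inserts iron into heme, averaged 5.67 ± 0.17 in TgC6hp55 and 6.01 ± 0.06 in wild type livers (adjusted p = 0.0676). Hmox2, a heme oxygenase, averaged 7.73 ± 0.08 in TgC6hp55 and 8.02 ± 0.10 in wild type livers (adjusted p = 0.0745). Alas1, the first enzyme of heme synthesis and itself a CAR target, read 10.47, 11.01, 10.51 and 10.72 in TgC6hp55 livers against 9.66, 11.29, 11.16 and 9.31 in wild type livers. Its wild type livers fell on both sides of the TgC6hp55 livers, and it was not called (adjusted p = 0.666). Hmox2 passed with an offset of 50 (-0.26, adjusted p = 0.0365), where 3 of the 15 genes were called.

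Cyp2b9 and Cyp2b13 belong to the female-biased genes of mouse liver, and the rest of that list was set beside them. Of 27 other female-biased genes on the array, 11 failed the detection filter. Of the 12 that were detected in at least 1 liver of each group, 9 were called higher and 0 lower, with a median of 1.91. The remaining 4 (A1bg, Cux2, Slc22a26 and Hao2) were detected in no wild type liver, entered the fit only through the TgC6hp55 livers and were called higher. With these 4 at their bounds the median over all 16 tested was 2.99, and from the fitted values it was 3.26. Calls made up 81.2% of the 16, these 4 included, against 11% of all features. A1bg was detected in no wild type liver and was at least 76.9-fold higher (10.85 ± 0.26 in TgC6hp55 and 4.38 ± 0.11 in wild type livers). Acot3 differed by 5.56 (adjusted p = 8.76e-10) and Cyp17a1 by 4.81 (adjusted p = 8.25e-09). Of 37 male-biased genes on the array 31 were tested, and 26 were called lower and 1 higher (median -2.42). Of the 31 tested, 1 was detected in no TgC6hp55 liver. Calls made up 87.1% of the 31, against 11% of all features.

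Of 22 genes of the growth hormone pathway and of sex-pattern control, 3 were called higher and 2 lower (median 0.07). The share called was 22.7%, against 11% of all features. Cux2 also stands in the female-biased list, Bcl6 in the male-biased list and Igf1 among the periportal genes below, so these calls are counted again there. Cux2, which acts in female liver, was not detected in wild type livers and entered the fit only through the TgC6hp55 livers. It was at least 8.78-fold higher (7.71 ± 0.24 in TgC6hp55 and 4.26 ± 0.03 in wild type livers). Bcl6, a repressor of male liver known to hold down female genes, read 7.14, 7.25, 6.94 and 6.49 in TgC6hp55 livers against 10.06, 8.58, 7.15 and 9.72 in wild type livers (log2 fold change -1.93, adjusted p = 0.0281). Wild type replicate 3 lay within the range of the TgC6hp55 livers for Bcl6, and its call was lost without any 1 of 6 of the 8 livers (all but TgC6hp55 replicate 2 and wild type replicate 3), with an adjusted p of 0.0544 to 0.0751 by limma. It was also lost without further background correction (0.127), without the filter (0.119) and with a variance trend (0.132). In these 9 fits its log2 fold change was -1.53 to -2.06. Esr1, the estrogen receptor, was higher (1.08, adjusted p = 2.18e-05), and Ghr, the growth hormone receptor, was not called (0.00, adjusted p = 0.999). Ptpn6 was called higher (0.52, adjusted p = 0.00967), a call lost in 2 of 18 alternatives. Igf1 was called lower (-0.47, adjusted p = 0.023), a call lost in 8 of 18.

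Cyp2b10 is expressed in pericentral hepatocytes, those around the central vein, so genes of the liver zones were examined. Of 28 pericentral genes 5 were called higher and 2 lower (median 0.03), and of 25 periportal genes 5 were called higher and 4 lower (median 0.06). The shares called were 25% and 36%, against 11% of all features. Calls went in both directions in each zone. With median scaling 3 pericentral genes were called in place of 7. Of the 45 other P450 genes tested, 11 were called higher and 12 lower, or 51.1% against 11% of all features. Their fitted log2 fold changes ran from -7.35 to 4.81 (median -0.01), with Cyp17a1 (4.81) and Cyp4a14, a fatty acid hydroxylase (3.42), highest. With median scaling 15 of these P450 genes were called and by SAM 13.

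**Figure D4:**
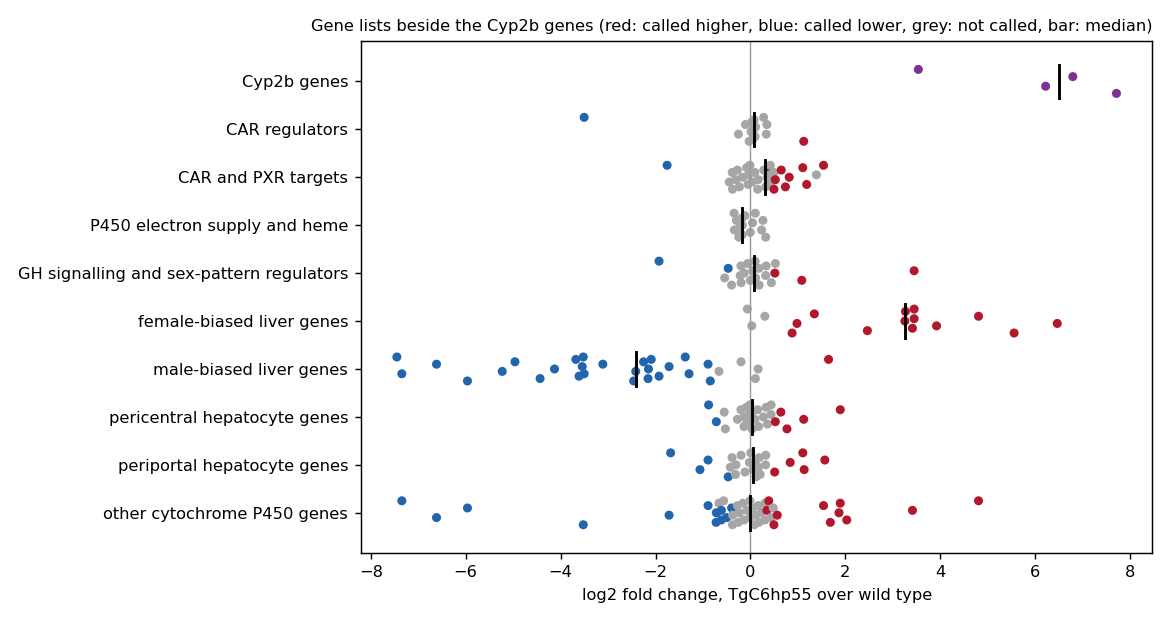
Log2 fold change (TgC6hp55 over wild type, horizontal axis) of each tested gene by list, with the 4 Cyp2b genes on top in purple and the median of each list as a bar. Female-biased genes lie mainly to the right (median 3.26, or 1.91 for the 12 detected in both groups). Male-biased genes lie to the left (median -2.42, or -2.33 for those detected in both groups). CAR and PXR targets centre on 0.30, and the other P450 genes spread from -7.35 to 4.81 around -0.01.

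Markers of the cell types in a liver were checked beside the Cyp2b values. Sums were taken after quantile normalization over 1 probe per listed gene on the array. They include probes that were not detected, and each probe carries the offset of 16. Quantile normalization fixes much of the signal at the top ranks, where the brightest hepatocyte markers lie. The hepatocyte sum was thus not free to vary much and is no measure of hepatocyte content. Hepatocyte markers summed to 106060 to 110280 linear signal units in TgC6hp55 livers and 105360 to 106400 in wild type livers, with 14 of 16 detected on every array and 1 of 14 tested called higher (Asgr1, a call lost in 12 of 18 alternatives). Kupffer cell and leukocyte markers summed to 1845 to 2824 in TgC6hp55 and 692 to 2058 in wild type livers, with 4 of 11 tested called higher, 0 lower, and 5 of 18 detected on no array. Of these calls C1qb was lost in 12 of 18 alternatives, Adgre1 in 9 and C1qa in 2. The remaining call, Marco, had overlapping groups and was detected in only 1 wild type liver (adjusted p = 0.0411 by limma). At an unadjusted p under 0.05 by limma were 8 of the 11 (median log2 fold change 0.91), against 2092 of all 8540 features. Endothelial markers summed to 3178 to 3429 in TgC6hp55 and 2093 to 3064 in wild type livers, with 2 of 11 called higher (Fcgr2b and Pecam1), both lost with median scaling (adjusted p = 0.296 and 0.384) and by SAM. At an unadjusted p under 0.05 by limma were 10 of these 11, all higher in TgC6hp55 livers (median over the list 0.36). Stellate and mesenchymal markers summed to 2180 to 2912 in TgC6hp55 and 1682 to 2451 in wild type livers, with 0 of 10 called by limma and 1 at an unadjusted p under 0.05. Cholangiocyte markers were near background, with sums of 81.0 to 83.4 in TgC6hp55 and 78.0 to 95.0 in wild type livers. Calls made up 7.14% of tested hepatocyte, 36.4% of Kupffer cell and leukocyte, 18.2% of endothelial and 0% of stellate and mesenchymal markers. Over all features the share was 11%. The part of these cell types in the Cyp2b difference was not tested.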

How the data were processed

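Livers of 4 TgC6hp55 and 4 wild type mice were compared, grouped by GEO's labels. The descriptions of the TgC6hp55 samples repeat 1 column name, so each column was assigned through the number in the sample title. The authors deposited GenomeStudio 2011.1 intensities before normalization (background already subtracted, lowest value -16) with a detection p-value per probe, and intensities after cubic spline normalization (median 15 on every array). In R 4.3.3 with limma 3.58.1, the deposited intensity values were corrected by normexp from the detection p-values with an offset of 16 and quantile normalized on the log2 scale. Probes with a detection p under 0.05 on at least 4 of 8 arrays were kept (11100), and the brightest of a gene's probes stood for it. Groups were compared by lmFit and eBayes over 7882 genes and 658 unnamed probes, two-sided, without covariates. SAM, which the methods name, was an alternative with 70 permutations, an FDR under 1% and a fold over 1.7. The fit was tested on simulated data. Of 25697 probes, 23978 have 1 symbol in GEO's platform annotation and 1719 have none, and 23963 of these symbols matched RefSeq. Promoters were aligned globally in Biopython 1.88 (match 2, mismatch -1). The files name no genome build, so coordinates are those of RefSeq alone.

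The members, gene lists and tests were chosen with earlier results of these data known. Genes were picked from each list by a rule, and not all of those picked are described. It took up to 4 called genes with the largest change among those whose groups did not overlap. Where none was called, it took up to 2 with the smallest p. Papss2, Slco1a4, Bcl6, Nr1i2, Rxra, Hnf4a, Alas1, Ghr, Cyp4a14, Cyp3a11, Cyp2c29, Cyp2c37, Cyp2a12 and Cyp2s1 were named for their roles or place after their values were seen. Slc22a26, Hao2 and Marco were named for their detection, likewise after their values were seen. The alternatives were other scalings, background corrections, filters and variance estimates, the replicate number as a block, SAM, and each liver left out.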

Additional observations from a re-analysis of the deposited data

Results flagged for a closer look

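In 6 of 98 groups of 4 livers examined, 1 liver stood apart from the other livers of its group by Dixon's criterion, which chance alone meets in about 1 in 20 groups, and none of these concerned a Cyp2b gene. For Sult1a1, wild type replicate 2 was low at 10.91, against 11.08 to 11.10 in the other wild type livers. For Igf1, wild type replicate 4 was low at 11.45, against 11.71 to 11.73. Hsd3b5, a male-biased steroid dehydrogenase, was high in TgC6hp55 replicate 1 at 4.76, against 4.27 to 4.33 in the other TgC6hp55 livers. Cyp4a12a, a male-biased P450, was high in the same liver at 5.23, against 4.38 to 4.50. Hsd3b5 and Cyp4a12a were each detected in only 1 TgC6hp55 liver, so the values of the others are background. Asgr1, a hepatocyte lectin, was high in wild type replicate 4 at 12.46, against 12.18 in each of the other wild type livers. Those others were tied, so any different value would have met the criterion. Pecam1, an endothelial marker, was low in wild type replicate 1 at 5.14, against 5.44 to 5.49.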

How the results depend on the processing

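Each Cyp2b gene was higher in TgC6hp55 livers under all 17 alternatives that refit its fold change. SAM was used for counts of calls only. The log2 fold changes moved beyond the replicate spread without further background correction (Cyp2b9 8.42, Cyp2b23 6.54, Cyp2b10 4.19), in the authors' cubic spline values (Cyp2b9 8.06, Cyp2b23 6.58) and with an offset of 50 (Cyp2b9 6.52, Cyp2b13 5.34, Cyp2b23 4.83, Cyp2b10 2.67). The last follows from the offset, which is added to signals near background. With each liver left out in turn the ranges were 7.59 to 7.80 for Cyp2b9, 6.63 to 7.0 for Cyp2b13, 6.05 to 6.36 for Cyp2b23 and 3.34 to 3.68 for Cyp2b10.

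Median scaling gave 293 called features (152 higher, 141 lower) in place of 942 and SAM gave 355 (224 higher, 131 lower). The counts under median scaling were 5 for CAR and PXR targets, 3 for growth hormone signalling, 3 for pericentral genes, 15 for other P450 genes and 3 for the chromosome 7 neighbours. Under SAM they were 6, 3, 3 and 13 for the first 4 of these lists. Pericentral genes gave 4 without further background correction. Electron and heme supply genes gave 2 without further background correction, 3 with an offset of 50 and 1 with a variance trend. The cause was not tested. With 1 liver left out, called features ranged over 620 to 910 (620 without wild type replicate 2), CAR and PXR targets over 8 to 13, CAR regulators over 2 to 3, growth hormone signalling over 3 to 5, pericentral genes over 6 to 9, periportal genes over 7 to 9, other P450 genes over 20 to 25, electron and heme supply over 0 to 1, neighbours over 5 to 6, male-biased genes over 26 to 27 and female-biased genes stayed at 13. Growth hormone signalling gave 3 without TgC6hp55 replicate 3, wild type replicate 1 or wild type replicate 2.

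Deviations of same-numbered livers correlated across genes at 0.16, 0.12, 0.01 and 0.11, so not every pair was over 0.1, the labels name no shared litter or day, and the livers were not treated as pairs. With the replicate block 923 features were called, and the calls of Igf1 (-0.47, adjusted p = 0.0558) and Asgr1 (0.36, adjusted p = 0.0502) were lost at an unchanged fold change. Igf1 was lost in 8 of 18 alternatives, among them median scaling (adjusted p = 0.0948), SAM and 5 fits with 1 liver left out. Cyp2b13 and Cyp2b23 have no measurable wild type level on these arrays, so only bounds of their folds can be given.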
